A study of Tabanus nipponicus with 3 samples.

Results

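The midgut transcripts named for small ligand carriers of insects were described in 3 adult females of the horse fly Tabanus nipponicus. These were odorant-binding proteins, ejaculatory bulb-specific (chemosensory-type) proteins, the takeout family and lipocalins. Members were chosen by the name of the best protein hit, as unigenes whose first listed title contained any of 14 terms for these carriers, for sensory neuron membrane proteins or for chemoreceptors. Unigenes are transcripts that were assembled with no genome as a guide. Of 8039 unigenes in the table, 30 were members. They comprised 14 odorant-binding proteins, 2 ejaculatory bulb-specific proteins, 5 takeout family proteins, 8 lipocalins and 1 gustatory receptor. No title contained chemosensory protein, pheromone-binding, juvenile hormone-binding, sensory neuron membrane protein, odorant receptor or ionotropic receptor, and carriers that lack such a name were not counted. All 3 flies were wild-caught adults labelled as wild type, with no treatment contrast, and they formed 1 group with 1 library per fly. Neither their age nor whether they had fed is stated in the labels. The values therefore describe levels and the differences between single individuals, and no test of a condition was possible. In each bulk sample, fewer cells of a type and less RNA per cell cannot be told apart.

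Odorant-binding proteins are small secreted proteins with a hydrophobic pocket. In antennae they carry odorants to receptors on sensory neurons, but many are made in other tissues, where their ligands are mostly not known. Ejaculatory bulb-specific protein 3 of Drosophila belongs to the chemosensory proteins, another family of small secreted carriers. Takeout proteins share their fold with the juvenile hormone-binding proteins of moths, and in Drosophila takeout itself is under clock control and affects feeding. Lipocalins such as apolipoprotein D bind lipids and other hydrophobic molecules in a barrel-shaped cavity, and their Drosophila members, the Lazarillo proteins, are known for roles in lipid handling and stress resistance.

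Levels are FPKM, read numbers normalised by unigene length and by library size. Recovered depths were 29308867 to 33797869 reads per fly. Detection means an FPKM of 1 or more. A variable call needed a mean of 5 FPKM or more, together with a difference of at least 4-fold in FPKM + 1 between the extreme flies. Fly 3 held the highest value of 66.5% of all unigenes. After median-of-ratios scaling, with size factors of 0.976 for fly 1, 0.838 for fly 2 and 1.27 for fly 3, it held the highest value of 41.1%. The main counts over all members are therefore also given with that scaling.

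The names rest on alignments of unequal quality. The median share of identical residues was 36.1% over the 30 members, against 65.5% over all unigenes with a hit. The alignment covered a median of 81.1% of the hit protein for members, against 84.4% for all unigenes. Odorant-binding proteins had the lowest median identity of the carrier classes with several members, 32.8%, with a range of 24.6% to 60.0%. Their hits had a median length of 134 residues and were covered over a median of 87.9%. The 2 ejaculatory bulb-specific proteins were better matched, with 61.7% and 70.6% identity. Takeout family members ranged from 37.7% to 64.0%. For 22 members the best hit came from flies or mosquitoes, and for 8 from other arthropods. Those 8 were 6 of the 8 lipocalins and 2 odorant-binding proteins, with a median identity of 32.7%, against 41.2% for the 22 others. Hits in the black soldier fly Hermetia illucens, the most frequent source in the table, named 5 members.

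**Figure D1:**
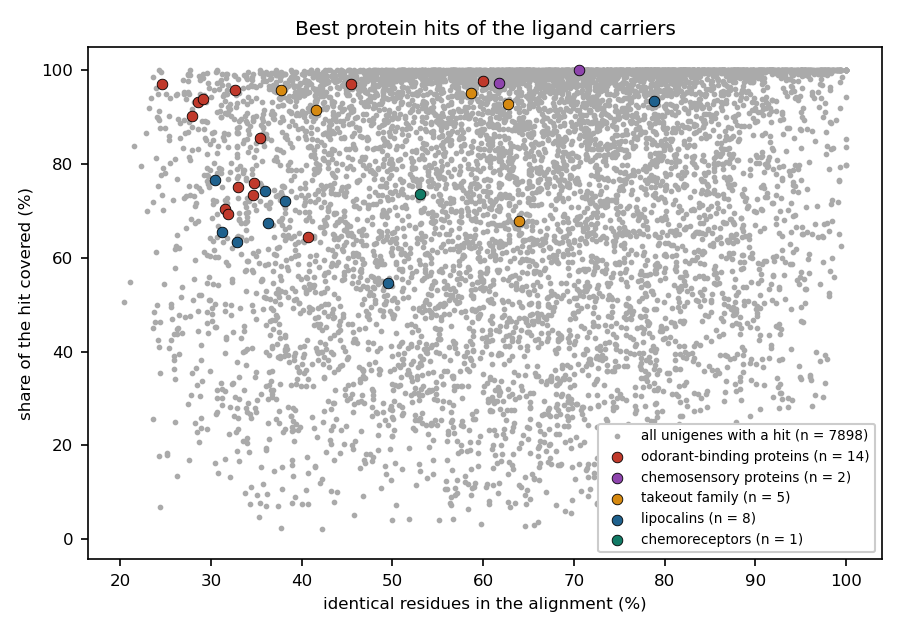
Identical residues in the alignment to the best protein hit (x axis, percent) against the share of the hit that the alignment covers (y axis, percent), for all unigenes with a hit (grey) and for the members coloured by class. Odorant-binding proteins sit at 24.6% to 60.0% identity, and the ejaculatory bulb-specific proteins sit at 61.7% and 70.6%.

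Several members shared a best hit. The 2 unigenes named general odorant-binding protein 56h both matched residues 32 to 125 of one house fly protein. The 3 unigenes named for a 56a-like protein of the hoverfly Episyrphus balteatus shared 92 residues of their hit. The 2 daywake-like unigenes shared 251 residues. Members of such a set thus align to the same stretch of the hit, and reads common to them could be divided between them in ways the table does not show.

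Together the 30 members took 0.0695% of the summed FPKM of fly 1, 0.0678% of fly 2 and 0.627% of fly 3, a mean of 0.255% ± 0.322 (SD, n = 3). Their summed level was 437, 431 and 4022 FPKM in flies 1, 2 and 3. The sum of flies 1 and 2 was thus nearly equal, although its makeup differed. Lipocalins held 46.2% of it in fly 1, 50.3% in fly 2 and 17.1% in fly 3. Odorant-binding proteins held 8.38%, 45.1% and 72.3%. Lipocalins were thus the leading class in flies 1 and 2, and odorant-binding proteins in fly 3. The takeout family held 28.6%, 1.61% and 0.704%. Ejaculatory bulb-specific proteins held 16.6%, 2.99% and 9.88%. No class kept the same share of the carriers in all flies.

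Detection differed between flies as well. An FPKM of 1 was reached by 16, 18 and 23 of the 30 members in flies 1, 2 and 3, against 86.4%, 85.8% and 95% of all unigenes. All flies reached it for 13 members (43.3%), against 81.6% of all unigenes, and no fly did for 4. By mean level, 6 members lay under 1 FPKM, 6 lay at 1 to 5 and 18 lay at 5 or more. The median of the members' mean levels was 7.21 FPKM, against 8.69 FPKM for all unigenes.

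**Figure D2:**
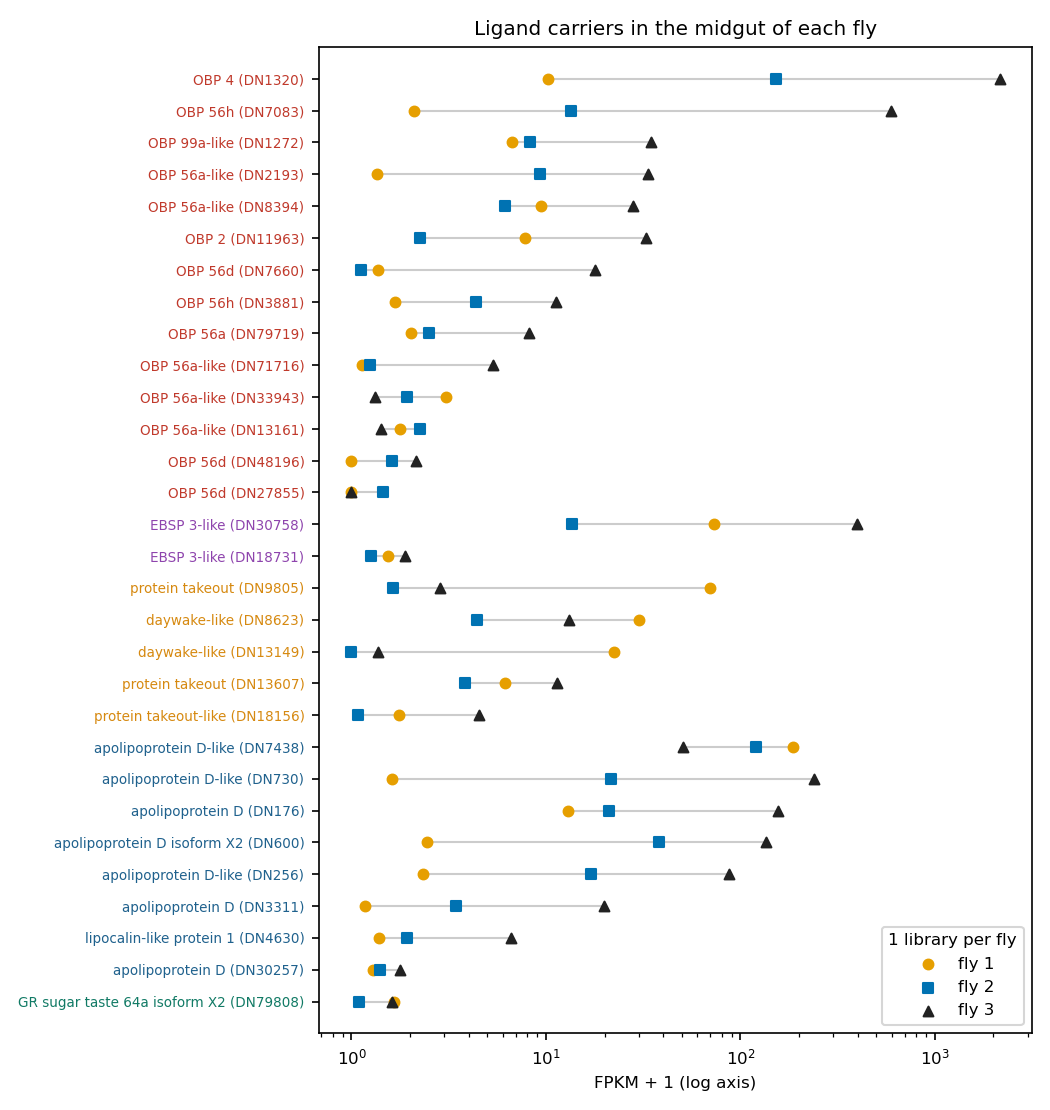
FPKM + 1 of each of the 30 members in each fly (x axis, log scale), with fly 1 as circles, fly 2 as squares and fly 3 as triangles, 1 library each. Label colours give the class, from top to bottom odorant-binding proteins (OBP), ejaculatory bulb-specific proteins (EBSP), takeout family, lipocalins and the gustatory receptor (GR). Fly 3 is highest for 22 members, 6 are highest in fly 1 (3 takeout family members, 1 apolipoprotein D-like and 1 56a-like unigene, and the gustatory receptor) and 2 are highest in fly 2.

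Among odorant-binding proteins, a single unigene dominated. Odorant binding protein 4 (TRINITY_DN1320_c0_g1_i2, 809 bases), named after a protein of the plant bug Pachypeltis micranthus with 31.5% identity, reached 9.22 FPKM in fly 1, against 152 in fly 2 and 2149.65 in fly 3. These levels rested on 119, 2072 and 25485 fragments, and the highest was 233-fold the lowest. By level it ranked 3647, 327 and 55 among the 8039 unigenes of flies 1, 2 and 3. It made up 25.2%, 78.0% and 73.9% of the summed odorant-binding proteins.

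General odorant-binding protein 56h (TRINITY_DN7083_c0_g1_i2, 850 bases) was at 1.11, 12.4 and 592 FPKM in flies 1, 2 and 3, a 536-fold range. The value of fly 1 came from 15 fragments, with a 95% exact Poisson interval of 0.619 to 1.82 FPKM that covers counting error only. Its rank by level was 6869 in fly 1 and 156 in fly 3. For both unigenes fly 1 was lowest, fly 3 highest and fly 2 between them. The other 56h unigene (TRINITY_DN3881_c0_g1_i1) had the same order of flies over a smaller range, at 0.681, 3.35 and 10.2 FPKM. With a mean of 4.75 FPKM it stayed under the level needed for a variable call.

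The remaining odorant-binding proteins lay far lower. General odorant-binding protein 99a-like (TRINITY_DN1272_c0_g1_i1), the best-matched member of the class at 60.0% identity, was at 5.66, 7.28 and 33.7 FPKM in flies 1, 2 and 3. A 56a-like unigene (TRINITY_DN2193_c0_g1_i4) was at 0.348, 8.29 and 32.6 FPKM, and a second (TRINITY_DN8394_c0_g1_i1) at 8.44, 5.16 and 27.2 FPKM. For odorant binding protein 2 (TRINITY_DN11963_c0_g1_i1), named after a protein of the stink bug Nezara viridula, the values were 6.79, 1.26 and 31.6 FPKM. All of these were highest in fly 3, whereas either fly 1 or fly 2 was lowest.

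General odorant-binding protein 56d (TRINITY_DN7660_c0_g1_i7) was at 0.377, 0.119 and 17.0 FPKM in flies 1, 2 and 3. Its values in flies 1 and 2 came from 3 fragments and 1 fragment. The 1 fragment of fly 2 has a 95% exact Poisson interval of 0.0030 to 0.661 FPKM. The other 6 members of the class had means of 0.151 to 3.24 FPKM. Among them, 56a (TRINITY_DN79719_c0_g1_i1) was at 1.03, 1.49 and 7.18 FPKM and a 56a-like unigene (TRINITY_DN71716_c0_g1_i1) at 0.129, 0.245 and 4.37 FPKM, the last 3 values from 1, 2 and 31 fragments. The order of flies was not common to the whole class. A 56a-like unigene (TRINITY_DN33943_c0_g1_i2) stood at 2.08, 0.933 and 0.323 FPKM in flies 1, 2 and 3. Another (TRINITY_DN13161_c0_g2_i1) was highest in fly 2, at 1.24 FPKM, against 0.774 in fly 1 and 0.422 in fly 3. The remaining 2 unigenes, both named 56d, rested on at most 8 fragments in any fly, and each had 0 fragments in fly 1.

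As a class, the 14 odorant-binding proteins summed to 36.6, 194 and 2908 FPKM in flies 1, 2 and 3, or 0.163% ± 0.251 of all FPKM (SD, n = 3). Without the most abundant member their mean share was 0.0431%, and without fly 3 the class held 0.0182%. Without both of its most abundant members, the sum of the other 12 was 26.3, 30.4 and 166 FPKM. Flies 1 and 2 thus differed in this class mostly through odorant binding protein 4 and the abundant 56h unigene, while fly 3 was also higher in the sum of the rest. With no filter on level, 10 of the 14 differed 4-fold with fly 3 highest, against 8.04% of all unigenes. After median-of-ratios scaling these were 7 of 14, against 5.3%. Variable calls with fly 3 highest were made for all 7 whose mean reached 5 FPKM, against 8.28% of all unigenes at that level. Some, such as 56d (TRINITY_DN7660_c0_g1_i7), reached that mean through fly 3 alone, so the unfiltered count stands first. With that scaling, 5 of the 6 tested were called variable, again with fly 3 highest, against 5.43%.

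Ejaculatory bulb-specific protein 3-like (TRINITY_DN30758_c0_g2_i1, 796 bases) matched a protein of the mosquito Wyeomyia smithii over its full length, with 70.6% identity. Its levels were 72.2, 12.6 and 396 FPKM in flies 1, 2 and 3, from 917, 170 and 4625 fragments. The highest was 31.4-fold the lowest, and unlike the most abundant odorant-binding proteins it was lowest in fly 2. The second unigene of this name (TRINITY_DN18731_c0_g1_i2) was at 0.540, 0.255 and 0.881 FPKM, under 1 FPKM in every fly. Both had the same order of flies, though the second rested on 4 to 12 fragments per fly. That order, with fly 2 lowest and fly 3 highest, was the commonest in the table, at 44.5% of all unigenes.

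In the takeout family, 3 of the 5 members were highest in fly 1, as were 21.3% of all unigenes. That is against the direction of most carriers. Protein takeout (TRINITY_DN9805_c0_g1_i2, 843 bases), with 41.6% identity to a sand fly protein, was at 68.8, 0.632 and 1.86 FPKM in flies 1, 2 and 3. The low values came from 9 and 23 fragments, with 95% exact Poisson intervals of 0.289 to 1.20 FPKM in fly 2 and 1.18 to 2.79 FPKM in fly 3, so they lie far below fly 1 even at their upper bounds. The range was 109-fold.

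The daywake-like members are named for a takeout relative whose Drosophila gene neighbours the clock gene period. One of them (TRINITY_DN8623_c0_g1_i7, 58.7% identity) was at 29.1, 3.43 and 12.1 FPKM in flies 1, 2 and 3. The other (TRINITY_DN13149_c0_g1_i11, 37.7% identity) was at 21.3 FPKM in fly 1, from 379 fragments, had no read in fly 2 and was at 0.368 FPKM in fly 3, from 6 fragments. Set against the limit of 3 fragments that a count of 0 allows in fly 2, 0.159 FPKM, its level in fly 1 was at least 134-fold higher. All 3 of these members were lowest in fly 2. With no filter on level, these 3 of the 5 family members differed 4-fold with fly 1 highest, against 0.796% of all unigenes. Of the 4 tested for variable calls, the same 3 were called with fly 1 highest, against 0.742% of all unigenes tested. Protein takeout (TRINITY_DN9805_c0_g1_i2) and TRINITY_DN13149_c0_g1_i11 reached the mean of 5 FPKM through fly 1 alone, so the unfiltered count stands first.

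The other 2 takeout family members, both named after Hermetia illucens proteins, were highest in fly 3. Protein takeout (TRINITY_DN13607_c0_g1_i4, 62.7% identity) was at 5.17, 2.81 and 10.4 FPKM in flies 1, 2 and 3, a range that made no variable call. A takeout-like unigene (TRINITY_DN18156_c0_g1_i12) was at 0.761, 0.0757 and 3.53 FPKM, its value in fly 2 from 2 fragments. All 5 members of the family shared fly 2 as their lowest fly. That was common in the table. From low to high, 44.5% of all unigenes had the order of flies 2, 1 and 3, and 12.3% the order 2, 3 and 1. The family summed to 125, 6.95 and 28.3 FPKM, or 0.00846% ± 0.0100 of all FPKM (SD, n = 3). Without fly 1 the mean share was 0.00275%.

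The most abundant lipocalin was 1 of only 2 members with a mean of 5 FPKM or more that made no variable call, the other being a takeout unigene (TRINITY_DN13607_c0_g1_i4). Apolipoprotein D-like (TRINITY_DN7438_c0_g1_i2, 861 bases), with 49.5% identity over 54.7% of a Drosophila elegans protein, was at 186, 119 and 49.5 FPKM in flies 1, 2 and 3. It was the most abundant member of the whole set in fly 1 and ranked 319 there among all unigenes. It made up 92.0%, 54.9% and 7.19% of the summed lipocalins. The range, 3.70-fold in FPKM + 1, fell just short of a variable call. After median-of-ratios scaling, 6 in place of 5 of the 6 lipocalins tested were called variable, against 7.63% in place of 9.42% of all unigenes tested.

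For the 7 other lipocalins, fly 1 was always lowest and fly 3 always highest, an order seen for 21.9% of all unigenes. After median-of-ratios scaling 7 lipocalins again had it, against 19.1%. Apolipoprotein D-like (TRINITY_DN730_c0_g1_i10) was at 0.610, 20.6 and 237 FPKM in flies 1, 2 and 3, a 388-fold range in which the value of fly 1 had a 95% exact Poisson interval of 0.286 to 1.14 FPKM. Apolipoprotein D isoform X2 (TRINITY_DN600_c0_g1_i4) was at 1.46, 37.0 and 134 FPKM. For apolipoprotein D (TRINITY_DN176_c0_g1_i3), flies 1 and 2 lay closer together, at 11.9 and 20.2 FPKM, with fly 3 at 156 FPKM.

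A further apolipoprotein D-like unigene (TRINITY_DN256_c0_g1_i6) was at 1.34, 16.1 and 85.8 FPKM in flies 1, 2 and 3, and another apolipoprotein D (TRINITY_DN3311_c0_g1_i3) at 0.173, 2.45 and 19.0 FPKM. With no filter on level, 6 of the 8 lipocalins differed 4-fold with fly 3 highest, against 8.04% of all unigenes. After median-of-ratios scaling these were 5 of 8, against 5.3%. The 5 unigenes just named were called variable, of 6 tested, against 8.28% of all unigenes tested and called with fly 3 highest. Of these, TRINITY_DN3311_c0_g1_i3 reached the mean of 5 FPKM through fly 3 alone. Lipocalin-like protein 1 (TRINITY_DN4630_c0_g1_i2) was at 0.391, 0.939 and 5.61 FPKM. The best-matched lipocalin was among the lowest, an apolipoprotein D (TRINITY_DN30257_c0_g1_i1) with 78.8% identity to its Hermetia illucens hit, at 0.285, 0.404 and 0.776 FPKM. Summed, the 7 reached 16.2, 97.7 and 638 FPKM, a 39.4-fold range, whereas all 8 lipocalins reached 202, 217 and 688 FPKM, a 3.41-fold range. The class held 0.0578% ± 0.0428 of all FPKM (SD, n = 3).

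The single chemoreceptor was named gustatory receptor for sugar taste 64a (TRINITY_DN79808_c0_g1_i1), after a family of Drosophila receptors for sweet tastants. It was at 0.661, 0.0893 and 0.618 FPKM in flies 1, 2 and 3, from 7, 1 and 6 fragments. It stayed under the detection level in every fly, and at this depth no difference between flies was detectable.

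The spread between flies was wide for these genes compared with the table as a whole. A 4-fold difference in FPKM + 1 between the highest and the lowest fly, with no filter on level, was found for 21 of the 30 members (70%), against 9.33% of all 8039 unigenes. With median-of-ratios scaling the count was 17 of 30, against 7.34%. Between flies 1 and 2 alone it was 10 of 30, against 2.95%, between flies 2 and 3 alone 13 of 30, against 6.56%, and between flies 1 and 3 alone 18 of 30, against 5.51%. In each of these settings the members' share at 4-fold lay above that of the table. Of the 30 members, 18 (60%) differed 4-fold with fly 3 highest, against 8.04% of all unigenes, 3 (10%) with fly 1 highest, against 0.796%, and 0 with fly 2 highest, against 0.498%. Among the 4-fold differences alone, fly 3 was highest for 85.7% of those of members and 86.1% of those of all unigenes, so the split by fly was much the same. The median between-fly SD of log2(FPKM + 1) was 1.33 for members and 0.38 for all unigenes. Of the 18 members whose mean reached 5 FPKM, 16 were called variable, against 9.42% of all unigenes at that level. A single high fly can lift a unigene over that mean, so the unfiltered count stands first. Without fly 3, 9 members were called variable, against 3.08% of all unigenes tested. Without fly 1 the calls numbered 11, against 7.77%, and without fly 2 they numbered 15, against 5.45%. With median-of-ratios scaling 15 members were called, against 7.63%. Differences of at least 100-fold in FPKM + 1 were found for 16 unigenes at that level, 0.304% of the 5256 tested, and 3 of those were members. They were odorant binding protein 4, the abundant 56h unigene and apolipoprotein D-like (TRINITY_DN730_c0_g1_i10).

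**Figure D3:**
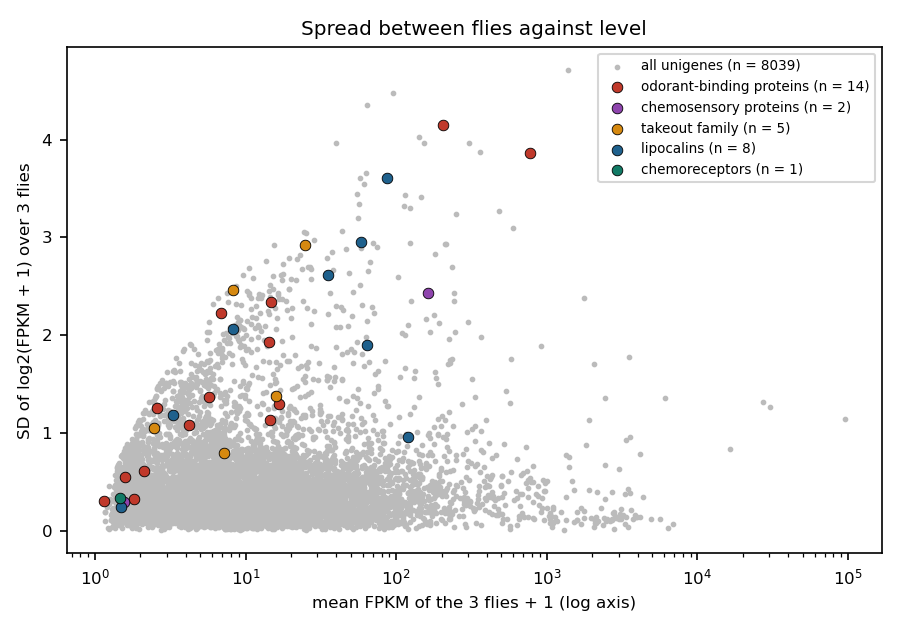
Mean FPKM of the 3 flies + 1 (x axis, log scale) against the SD of log2(FPKM + 1) over the 3 flies (y axis), for all 8039 unigenes (grey) and for the members coloured by class. Most members above a mean of 5 FPKM lie above the bulk of the table, and the 56h unigene has the largest SD of the members, at 4.15.

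The direction of these differences was not the same for all members. Fly 3 was highest for 22 of the 30 (73.3%), close to the 66.5% of all unigenes, and after median-of-ratios scaling again for 22, against 41.1%. The full order with fly 1 lowest and fly 3 highest was seen for 15 members (50%), against 21.9% of all unigenes, and after median-of-ratios scaling again for 15, against 19.1%. With either scaling the 15 comprised 8 odorant-binding proteins and 7 lipocalins. Of the 18 members tested for variable calls, 13 (72.2%) were called with fly 3 highest, against 8.28% of all unigenes tested, 3 (16.7%) with fly 1 highest, against 0.742%, and 0 with fly 2 highest, against 0.4%. Among variable calls alone, fly 3 was highest for 13 of the 16 members (81.2%), against 87.9% of those of all unigenes. After median-of-ratios scaling 11 of 17 members tested were called with fly 3 highest, against 5.43%, and 4 with fly 1 highest, against 0.869%. Among the calls made with that scaling, fly 3 was highest for 73.3% of those of members and 71.1% of those of all unigenes.

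The median shift of log2(FPKM + 1) in fly 3 from the mean of the other flies was 1.95 for members and 0.43 for all unigenes. In fly 1 the median shifts were -0.69 and -0.06, and in fly 2 they were -0.62 and -0.33. After median-of-ratios scaling, members stood at 1.56 in fly 3 and all unigenes at 0.023. Between flies 3 and 1, 16 members were at least 4-fold higher in fly 3, against 4.98% of all unigenes (12 after median-of-ratios scaling, against 3.79%), and 2 members, protein takeout and a daywake-like unigene, were at least 4-fold lower, against 0.535%. Between flies 2 and 1, 6 members were at least 4-fold higher in fly 2, against 1.44%, and 4 were lower, against 1.51%. The 6 were 3 odorant-binding proteins and 3 lipocalins, and the 4 were 3 takeout family members and 1 ejaculatory bulb-specific protein.

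Ratios between classes within a fly moved with these differences. Summed odorant-binding proteins stood at 0.293, 28.0 and 103 times the takeout family in flies 1, 2 and 3. They stood at 0.181, 0.898 and 4.23 times the lipocalins and at 0.504, 15.1 and 7.32 times the ejaculatory bulb-specific proteins. Lipocalins stood at 1.61, 31.1 and 24.3 times the takeout family, so that of these 4 ratios only this one kept its direction in all 3 flies.

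**Figure D4:**
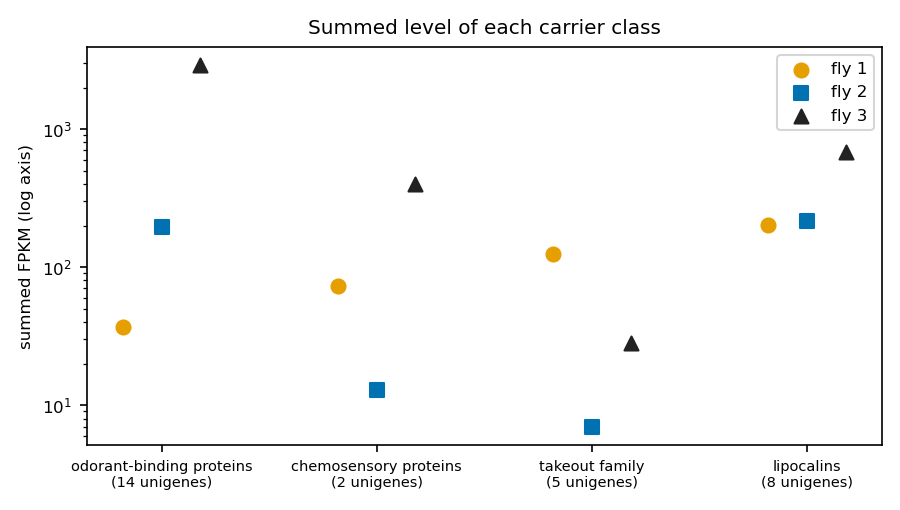
Summed FPKM (y axis, log scale) of the carrier classes with more than 1 member in fly 1 (circles), fly 2 (squares) and fly 3 (triangles). Odorant-binding proteins span 36.6 to 2908 FPKM, while the takeout family is highest in fly 1, at 125 FPKM.

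Genes that handle the hormone or the lipids which such carriers may bind were examined beside them, from lists of names. Of 6 unigenes for juvenile hormone handling, 5 had a mean of 5 FPKM or more. With no filter on level, 2 of the 6 differed 4-fold, against 9.33% of all unigenes. The same 2 were called variable, both highest in fly 3, against 8.28% of all unigenes at a mean of 5 FPKM or more. Both reached that mean through fly 3 alone, so the unfiltered count stands first. One was a juvenile hormone esterase (TRINITY_DN2859_c0_g1_i4), from enzymes that inactivate the hormone, at 0.258, 2.68 and 32.4 FPKM in flies 1, 2 and 3. The other was juvenile hormone acid O-methyltransferase-like (TRINITY_DN2627_c0_g1_i3), named for an enzyme of hormone synthesis, which was listed at 0 in flies 1 and 2 and at 16.6 FPKM in fly 3. The most abundant unigene of the list, another juvenile hormone esterase (TRINITY_DN380_c0_g1_i5), was at 227 ± 33.4 FPKM, and juvenile hormone epoxide hydrolase 1-like (TRINITY_DN1660_c0_g1_i9) at 27.0 ± 5.02 FPKM (SD, n = 3). The 7 clock unigenes, which include the genes of the daily feedback loop, gave 0 variable calls among the 6 with a mean of 5 FPKM or more. These were too few to set apart from the 9.42% of all unigenes at that level. Protein timeless (TRINITY_DN1261_c0_g1_i79) was at 50.6 ± 13.5 FPKM and protein cycle (TRINITY_DN248_c1_g1_i1) at 32.7 ± 18.1 FPKM (SD, n = 3). Protein cycle was lowest in fly 3, at 11.9 FPKM, and its range of 3.56-fold in FPKM + 1 fell just short of a variable call.

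The list of other lipid carriers matched 16 unigenes. With no filter on level, 2 of the 16 differed 4-fold, against 9.33% of all unigenes. Of the 13 with a mean of 5 FPKM or more, the same 2 were called variable, against 9.42% of all unigenes at that level. The ATP synthase lipid-binding protein (TRINITY_DN3341_c0_g2_i11), at 962 ± 249 FPKM (SD, n = 3), is a subunit of ATP synthase and not a carrier of free lipids. Among the rest, NPC intracellular cholesterol transporter 2 homolog a-like (TRINITY_DN1791_c0_g1_i3), named for a secreted sterol-binding protein, was at 946 ± 329 FPKM and a probable fatty acid-binding protein (TRINITY_DN4803_c3_g1_i4) at 108 ± 49.1 FPKM (SD, n = 3). The 2 variable unigenes had fly 1 lowest and fly 3 highest, as did 15 of the 30 members and 21.9% of all unigenes. MD-2-related lipid-recognition protein-like (TRINITY_DN3411_c0_g2_i2) was at 3.16, 37.3 and 128 FPKM, and apolipophorins (TRINITY_DN9332_c0_g1_i15), the lipid transport protein of insect blood, at 0.619, 13.8 and 64.1 FPKM. The CD36 family, lipid receptors to which sensory neuron membrane proteins belong, had 7 unigenes. With no filter on level, 2 of the 7 differed 4-fold, against 9.33% of all unigenes. Both were named for lysosome membrane protein 2, at 0.659, 1.57 and 7.21 FPKM and at 0, 0.0927 and 3.14 FPKM in flies 1, 2 and 3. Of the 3 unigenes with a mean of 5 FPKM or more, 0 were called variable, too few to set apart from the 9.42% of all unigenes. All 7 were highest in fly 3, as were 66.5% of all unigenes. The family summed to 82.0, 55.8 and 128 FPKM. Its most abundant unigenes were protein croquemort-like (TRINITY_DN4581_c0_g1_i37) at 46.4 ± 20.0 FPKM and protein peste-like (TRINITY_DN2407_c0_g1_i2) at 27.6 ± 6.19 FPKM (SD, n = 3).

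Markers of other tissues also differed between the flies. Their lists were matched by words in the titles, so they also held names such as myosin heavy chain, non-muscle. Over all 8039 unigenes, fly 3 was highest for 66.5%, fly 1 for 21.3% and fly 2 for 12.3%. These are the shares to set beside the counts of highest flies below. A level of 0 was listed for 90, 99 and 13 unigenes in flies 1, 2 and 3. The 9 fat body names, vitellogenins and hexamerins with 1 vitellogenin receptor, summed to 6.46, 11.0 and 33.5 FPKM in flies 1, 2 and 3. None exceeded 12.4 FPKM in any fly, and 1 was at 0 in fly 1. Fly 1 was lowest and fly 3 highest for 6 of the 9, against 21.9% of all unigenes with that full order. The 14 hemocyte names summed to 20.5, 34.6 and 125 FPKM, with 9 highest in fly 3, 5 highest in fly 2 and 0 at 0 in any fly. Their most abundant unigene, phenoloxidase-activating factor 2-like (TRINITY_DN10611_c0_g1_i10), was at 5.86, 10.5 and 55.4 FPKM. This and 2 further unigenes named for that factor, at 21.8 and 14.4 FPKM in fly 3, made up most of the fly 3 sum. No other hemocyte name exceeded 7.23 FPKM in any fly, and the 5 highest in fly 2 were named phenoloxidase or peroxidasin. The order of the hemocyte sums without the activating factor names was not examined. Cuticle names, 5 unigenes, summed to 247, 8.79 and 543 FPKM, with 4 highest in fly 3 and 2 at 0 in fly 2. Muscle names, 20 unigenes, summed to 780, 776 and 1555 FPKM, with 16 highest in fly 3. Those highest in another fly were named myosin heavy chain 95F, unconventional myosin heavy chain 6 or troponin C-akin-1. All 4 of these lists had their highest sum in fly 3. The 11 neuron names summed to 194, 197 and 218 FPKM, with 7 highest in fly 3. The 8 salivary names summed to 14149, 9596 and 10882 FPKM, with 4 highest in fly 1 and 4 in fly 3. The only salivary name called variable, a probable salivary secreted peptide (TRINITY_DN6269_c0_g1_i1), was at 8.23, 252 and 372 FPKM. Neuroglian led the neuron names, at a mean of 77.6 FPKM, whereas synaptotagmin 1 had a mean of 0.615 FPKM. Digestive enzymes of midgut enterocytes, 74 unigenes, summed to 15693, 16472 and 11278 FPKM, so the labelled tissue was present in each library. Although this sum was lowest in fly 3, 43 of the 74 were highest there. Their median shift in fly 3 was 0.56, against 0.43 for all unigenes. The most abundant of them, trypsin Blo t 3-like, was at 4158, 6159 and 2090 FPKM. Odorant-binding proteins and lipocalins shared their order of flies in summed level with fat body, hemocyte and neuron names. The neuron sums, however, ranged only 1.12-fold. Ejaculatory bulb-specific proteins shared their order with cuticle and muscle names. The takeout family, highest in fly 1 and lowest in fly 2, shared its order with the salivary names, whose sums ranged 1.47-fold. That order held for the salivary sum and not for each salivary name. After median-of-ratios scaling the orders of the carrier classes and of the fat body, hemocyte and cuticle names were unchanged, whereas those of the neuron, muscle and salivary names changed, so that muscle names took the order of odorant-binding proteins and lipocalins. The part of other tissues in the carriers' levels was not tested.

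**Figure D5:**
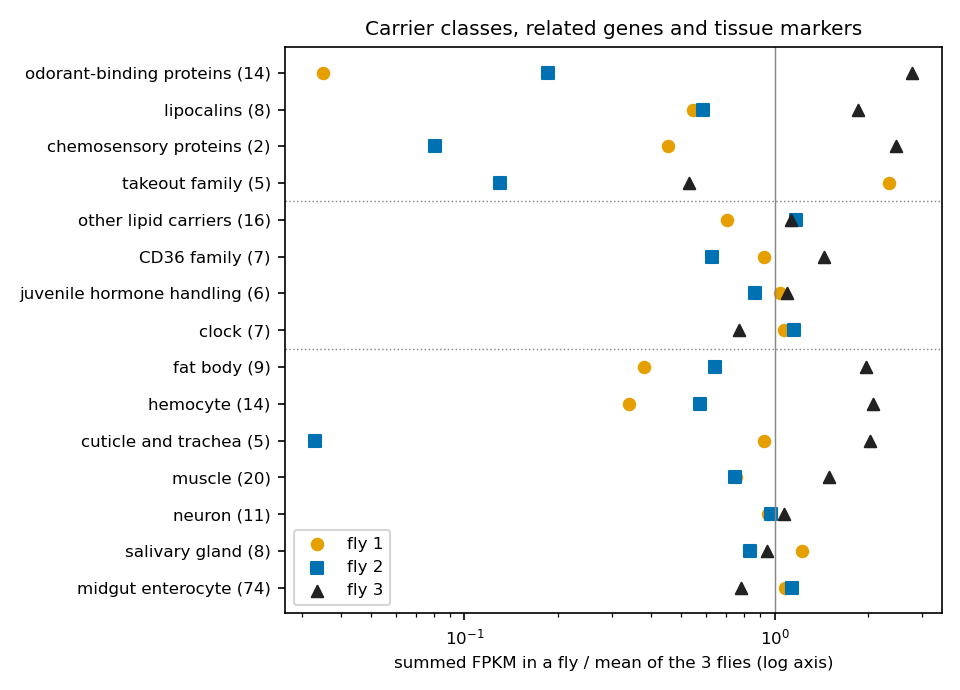
Summed FPKM of each list in a fly divided by the mean of the 3 flies (x axis, log scale), with the number of unigenes in brackets, for carrier classes (top), related genes (middle) and tissue markers (bottom). Odorant-binding proteins spread over a 79.4-fold range between flies and cuticle names over a 61.8-fold range. The range was 6.12-fold for hemocyte names, 5.19-fold for fat body names, 2.00-fold for muscle names and 1.46-fold for midgut enterocyte names.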

How the data were processed

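RNA sequencing of midguts from 3 single female flies gave 1 deposited table. Per the file headers, the authors' values are FPKM for each of 8039 unigenes, with unigene length, alignment positions, a bit score and the percent of identical residues to the best protein hit. The bit score deposited by the authors was not used. Identifiers carry the Trinity prefix. For the assembler version, aligner, counting tool and protein database, the sources used here state nothing. Fly 3, numbered 4 in its column name, was matched by the library name in its label. FPKM times length summed to 1e+09 per fly. Dividing by its smallest value gave whole numbers, within 0.001, for 97.1% to 97.3% of unigenes, and fragments are pairs of 2 such reads. Libraries counted as separate flies by the labels. Intervals are 95% exact Poisson intervals on fragments, floors are 3 fragments, and both cover counting error only.

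Members, classes and lists were chosen with earlier results of these data known. Differences were taken on the log2(FPKM + 1) scale, on which those between low levels are understated, and no count model was fitted. With 1 group and 1 library per fly there was no p-value. Named are the 8 members of each class with the highest mean, every variable member, the 3 steadiest members above a mean of 5 FPKM, and the 2 most abundant unigenes of each related list. Other unigenes named in the text were chosen after their values were seen. Scripts were tested on simulated data and run with Python 3.11.15, pandas 2.3.3, numpy 2.4.6 and scipy 1.17.1.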

Additional observations from a re-analysis of the deposited data

How the results depend on the processing

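Alternatives were median-of-ratios scaling, a pseudocount of 0.1, other filters, 2-fold and 8-fold calls, other detection levels, weighting by length, totals without the 10 most abundant unigenes, any title of the hit, and leaving out a class's most abundant member or 1 fly. Leaving out 1 fly gave 9 to 15 variable members against 16, and 10 to 18 members at 4-fold with no filter against 21, in both cases fewest without fly 3. The alternatives for the unfiltered count, and the scaling of the counts by order of flies and between 2 flies, were chosen after seeing the data. At a detection level of 5 FPKM, 11 members were detected in fly 2 against 18. Shares of FPKM without 1 fly ran from 0.0686% to 0.348% for all members, 0.0182% to 0.242% for odorant-binding proteins, 0.00679% to 0.0367% for ejaculatory bulb-specific proteins, 0.00275% to 0.0121% for the takeout family and 0.0331% to 0.0706% for lipocalins. As a share of reads the members held 0.135%, against 0.255% of FPKM, and without the 10 most abundant unigenes in the total they held 0.348%. At a pseudocount of 0.1, the between-fly SD of 4 low members moved by more than its own size. Any title gave the same members. Members with fewer than 10 fragments in a fly carry wide counting intervals. No paired analysis was possible because the labels give 1 group.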

Other observations

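A further family of carriers for hydrophobic ligands, with the CRAL-TRIO lipid-binding domain, was looked at after its titles and values were seen. Its 14 unigenes, named clavesin, alpha-tocopherol transfer protein or retinol-binding protein pinta, summed to 634, 524 and 490 FPKM in flies 1, 2 and 3. They held 0.0865% ± 0.0127 of all FPKM (SD, n = 3), against 0.255% ± 0.322 for the 30 members described above. The 3 most abundant were retinol-binding protein pinta-like (TRINITY_DN6333_c0_g1_i13) at 148 ± 36.6 FPKM, retinol-binding protein pinta (TRINITY_DN1143_c0_g1_i9) at 136 ± 28.9 FPKM and a second pinta-like unigene (TRINITY_DN8267_c0_g1_i1) at 116 ± 14.2 FPKM (SD, n = 3). In Drosophila, pinta binds retinoids in the eye. With no filter on level, 3 of the 14 differed 4-fold, against 9.33% of all unigenes. The same 3 were called variable, of 11 with a mean of 5 FPKM or more, against 9.42% of all unigenes at that level. All 3 were highest in fly 3, and the most variable was clavesin-1 (TRINITY_DN7852_c0_g1_i1) at 4.30, 0.207 and 16.2 FPKM.

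Krueppel homolog 1, a target of juvenile hormone signalling in insects, was missed by the word list because of its spelling. The 2 unigenes of that name, TRINITY_DN2633_c0_g1_i4 and TRINITY_DN3328_c0_g2_i6, were at 2.76 ± 1.84 and 1.37 ± 0.645 FPKM (SD, n = 3), and neither was called variable.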
